A study of Mus musculus with 15 samples.

Results

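The genes described here are 6 transcription factors of myeloid and erythroid cells, the C/EBP family members *Cebpa*, *Cebpb*, *Cebpd* and *Cebpe*, *Spi1* (which encodes PU.1) and *Gfi1b*. They were chosen by symbol, and each matched 1 of the 24690 gene entries of the deposited tables. The study asked how TGF-β signaling shapes group 2 innate lymphoid cells (ILC2s), lymphocytes without antigen receptors that secrete type 2 cytokines, and their bone marrow (BM) precursors, ILC2p. RNA-seq had been done on 15 libraries, 7 of ILC2s from the lamina propria (LP) of the gut and 8 of ILC2p. All donor mice carried *Tgfbr2*f/f, a floxed gene of TGF-β receptor II, and ER-Cre, a recombinase that tamoxifen switches on and that is not limited to ILC2s. Tamoxifen (i.p., 1 mg on each of 5 days) gave the Tgfbr2-/- groups and sunflower oil the WT groups, in C57BL/6 mice aged 8 to 12 weeks.

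LP ILC2s (4 WT and 3 Tgfbr2-/- libraries) were sorted from the treated mice themselves, 1 day after the end of treatment. ILC2p (4 WT and 4 Tgfbr2-/- libraries) came from chimeras, in which CD45.2+ BM of treated mice was mixed 1:1 with normal CD45.1+ BM and given to lethally irradiated CD45.1+ hosts. These cells were sorted 6 weeks later as CD45.2+Lin–CD127+α4β7+CD25+ cells, and the antibodies of the lineage (Lin) gate included CD11b and Gr-1 against myeloid cells. Each cell type was sequenced in 2 experiments on runs of its own, so cell type and run cannot be told apart. Pooling of animals was not stated, so the spread between libraries may be in part technical, and p-values measure that spread only. The ILC2 libraries held 12167066 to 32114265 reads on genes, and the ILC2p libraries 10957021 to 35961215. Values below are listed by experiment and then by replicate, and levels are RPKM, reads scaled to transcript length and library depth, which can be compared between genes.

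C/EBP proteins are basic leucine zipper factors that bind DNA as pairs and switch on genes of granulocytes and macrophages. C/EBPα acts at the entry into the granulocyte lineage, C/EBPε is needed for the late stages in which secondary granules are filled, and C/EBPβ and C/EBPδ respond to cytokines and are used more widely. PU.1 is an ETS factor needed by myeloid and B cells, and GFI1B is a zinc finger repressor of red cell and platelet precursors. In ILC2s and their precursors the leading factor is instead GATA3.

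Promoter sequences are shown for the members whose level was scattered between libraries, *Cebpa* and *Gfi1b*, and for *Ngp* and *Mmp8*, granule genes that were higher in Tgfbr2-/- than in WT ILC2p and whose promoters hold C/EBP letters. No RefSeq promoter was at hand for *Spi1*, *Cebpe* and *Cebpd*, and that of *Cebpb* is not shown. Each is the 250 bases before the RefSeq start site (table build GRCm38.p6), matched exactly to mm9. The places are chr7:35904062-35904311 (plus strand) for *Cebpa*, chr2:28477503-28477752 (minus strand) for *Gfi1b*, chr9:110322062-110322311 (plus strand) for *Ngp* and chr9:7558179-7558428 (plus strand) for *Mmp8*. Capitals mark matches, on either strand, to TTGCNNAA (C/EBP), GAGGAA (PU.1), GATAA (GATA factors), AAATCA (GFI1 and GFI1B) or TATAAA.
Cebpa: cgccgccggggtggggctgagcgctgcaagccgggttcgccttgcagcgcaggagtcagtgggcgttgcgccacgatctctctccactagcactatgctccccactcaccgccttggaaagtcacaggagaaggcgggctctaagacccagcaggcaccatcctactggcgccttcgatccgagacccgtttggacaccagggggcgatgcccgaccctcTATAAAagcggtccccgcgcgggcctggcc
Gfi1b: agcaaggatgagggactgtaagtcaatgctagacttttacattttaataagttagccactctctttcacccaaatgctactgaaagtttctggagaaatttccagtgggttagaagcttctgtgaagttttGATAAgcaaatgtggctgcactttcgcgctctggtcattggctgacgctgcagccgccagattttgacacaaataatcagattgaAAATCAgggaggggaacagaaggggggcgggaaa
Ngp: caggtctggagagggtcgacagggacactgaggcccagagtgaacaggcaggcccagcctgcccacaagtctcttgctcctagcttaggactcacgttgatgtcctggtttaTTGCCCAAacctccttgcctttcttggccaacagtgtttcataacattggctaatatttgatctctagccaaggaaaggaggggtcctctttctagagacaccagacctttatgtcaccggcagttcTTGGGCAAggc
Mmp8: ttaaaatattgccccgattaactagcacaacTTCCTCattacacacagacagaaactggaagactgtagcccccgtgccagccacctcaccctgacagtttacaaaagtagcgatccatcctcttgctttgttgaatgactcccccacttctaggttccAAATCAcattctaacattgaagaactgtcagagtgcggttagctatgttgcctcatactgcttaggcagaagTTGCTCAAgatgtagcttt
The C/EBP letters stood at 138 and 11 bases before the start of *Ngp* and 19 bases before that of *Mmp8*, and the *Gfi1b* promoter held the GATA and the GFI1 letters. Among all 32851 promoters of the RefSeq table, 9.56% held TTGCNNAA, 23.3% GAGGAA, 22.6% GATAA, 12.4% AAATCA and 12.4% TATAAA. Of the 12 granule genes listed below, the promoters of *Lcn2*, *Ltf*, *Mmp8* and *Ngp* held TTGCNNAA, and those of 8 held GAGGAA. A match describes the sequence and does not show a bound site.

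In the mm9 annotation the members lie on chromosomes 7 (*Cebpa*, 35904312 to 35906945), 2 (*Cebpb*, 167514415 to 167515918), 16 (*Cebpd*, 15887379 to 15888559), 14 (*Cebpe*, 55329200 to 55331011), 2 (*Spi1*, there named Sfpi1, 90922547 to 90955913) and 2 (*Gfi1b*, 28464970 to 28477502). *Cebpa* and *Cebpb* have 1 exon each, and counts covered all exons of a gene.

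*Tgfbr2* itself did not separate the genotypes. Its level in LP ILC2s was 36.1, 57.9, 36.5 and 51.4 RPKM in the libraries labelled WT and 49.1, 40.5 and 23.9 RPKM in those labelled Tgfbr2-/-. In ILC2p it was 0.146, 59.1, 25.3 and 49.0 RPKM in the libraries labelled WT and 16.9, 26.3, 6.82 and 38.7 RPKM in those labelled Tgfbr2-/-. The groups overlapped in both cell types. Reads were counted over whole transcripts, so the level does not show the deleted part alone. The genotypes below are those of the labels.

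The clearest difference between the groups lay in BM ILC2p. *Spi1*, *Cebpe* and *Cebpd* were high in all 4 Tgfbr2-/- libraries and near the bottom of the scale in all 4 WT libraries, *Cebpb* was high in all 8, and *Cebpa* and *Gfi1b* were each high in only a few. *Spi1* was at 321, 512, 499 and 512 RPKM in the Tgfbr2-/- libraries and at 2.77, 2.45, 3.80 and 1.23 RPKM in the WT libraries. The lowest Tgfbr2-/- library thus lay far above the highest WT library, and the group means were 461 ± 93.8 and 2.56 ± 1.06 RPKM (SD, n = 4 each). The edgeR quasi-likelihood test, with the experiment as a covariate, gave *Spi1* a log2 fold change of 7.69 (SE 0.57, adjusted p = 0.000124). Lower numbers of a cell type and less RNA per cell cannot be told apart in these bulk libraries.

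*Cebpe*, the late granulocytic factor, was at 546, 150, 247 and 322 RPKM in the Tgfbr2-/- ILC2p libraries. In the WT ILC2p libraries it was at 0.624, 0.842, 2.25 and 1.01 RPKM, from 9, 15, 88 and 42 reads. The groups did not overlap, and the log2 fold change was 8.39 (SE 0.79, adjusted p = 0.000483, edgeR). *Cebpe* varied more than *Spi1* within the Tgfbr2-/- group, by 3.65-fold from the lowest to the highest library, against 1.60-fold for *Spi1*.

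*Cebpd*, an early-response C/EBP gene, was at 233, 175, 172 and 141 RPKM in the Tgfbr2-/- ILC2p libraries and at 0.576, 1.25, 0.979 and 6.62 RPKM in the WT ILC2p libraries. Again the groups did not overlap, and the WT library with 6.62 RPKM stood apart from the other WT libraries. The log2 fold change was 6.84 (SE 0.91, adjusted p = 0.00404, edgeR).

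*Cebpb*, which also carries cytokine signals in lymphoid cells, was at 390.0, 583, 363 and 395 RPKM in the Tgfbr2-/- ILC2p libraries and at 389, 357, 358 and 256 RPKM in the WT ILC2p libraries. These ranges overlapped between the experiments, and the log2 fold change of 0.57 (SE 0.27) did not pass the test (adjusted p = 0.594, edgeR). It was the member with the highest level in all 4 WT ILC2p libraries, whereas *Spi1* or *Cebpe* exceeded it in 3 of the 4 Tgfbr2-/- libraries.

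*Cebpa*, the early granulocytic factor, was at 25.3, 81.1, 8.77 and 0 RPKM in the Tgfbr2-/- ILC2p libraries and at 0.163, 9.73, 0 and 0.0340 RPKM in the WT ILC2p libraries. Both groups held a library with no read and a library with 369 reads or more, so the groups overlapped. The log2 fold change of 5.77 had an SE of 2.60 and did not pass the edgeR test (adjusted p = 0.539), although DESeq2 called it (adjusted p = 0.0094). With edgeR it was 2.49 without Tgfbr2-/- replicate 1 of experiment 2 and 8.13 without WT replicate 2 of experiment 1.

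*Gfi1b* followed neither the genotype nor the other members. No reads or 1 read fell on it in all 4 ILC2p libraries of experiment 1. In experiment 2 it was at 47.9 and 9.50 RPKM in the WT libraries (2606 and 547 reads) and at 17.2 and 0.132 RPKM in the Tgfbr2-/- libraries (667 and 7 reads). It did not pass the filter on low counts and was not tested with edgeR.

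Of the 5 members tested in ILC2p, 3 were thus called, all higher in Tgfbr2-/- cells. A gene was called at a Benjamini-Hochberg adjusted p under 0.1 and a fold change over 1.5, and by this rule 3.47% of the 9242 genes tested were called, 2.61% higher and 0.866% lower. Thus 75.1% of the calls were higher, against 55.0% with DESeq2, 66.2% with library size scaling and 88.6% with the replicate number as a block. In the exact two-sided permutation of the genotype within experiments (36 arrangements, log2(CPM + 1)), *Spi1*, *Cebpe*, *Cebpd* and *Cebpb* each gave p = 0.0556, the smallest this design allows. *Cebpa* gave p = 0.167 and *Gfi1b* p = 0.5 in the same permutation test. The 3 called members were also called without any single library. Within experiment 1 alone the adjusted p of *Cebpe* was 0.127, and within experiment 2 alone that of *Cebpd* was 0.209 (edgeR).

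**Figure D1:**
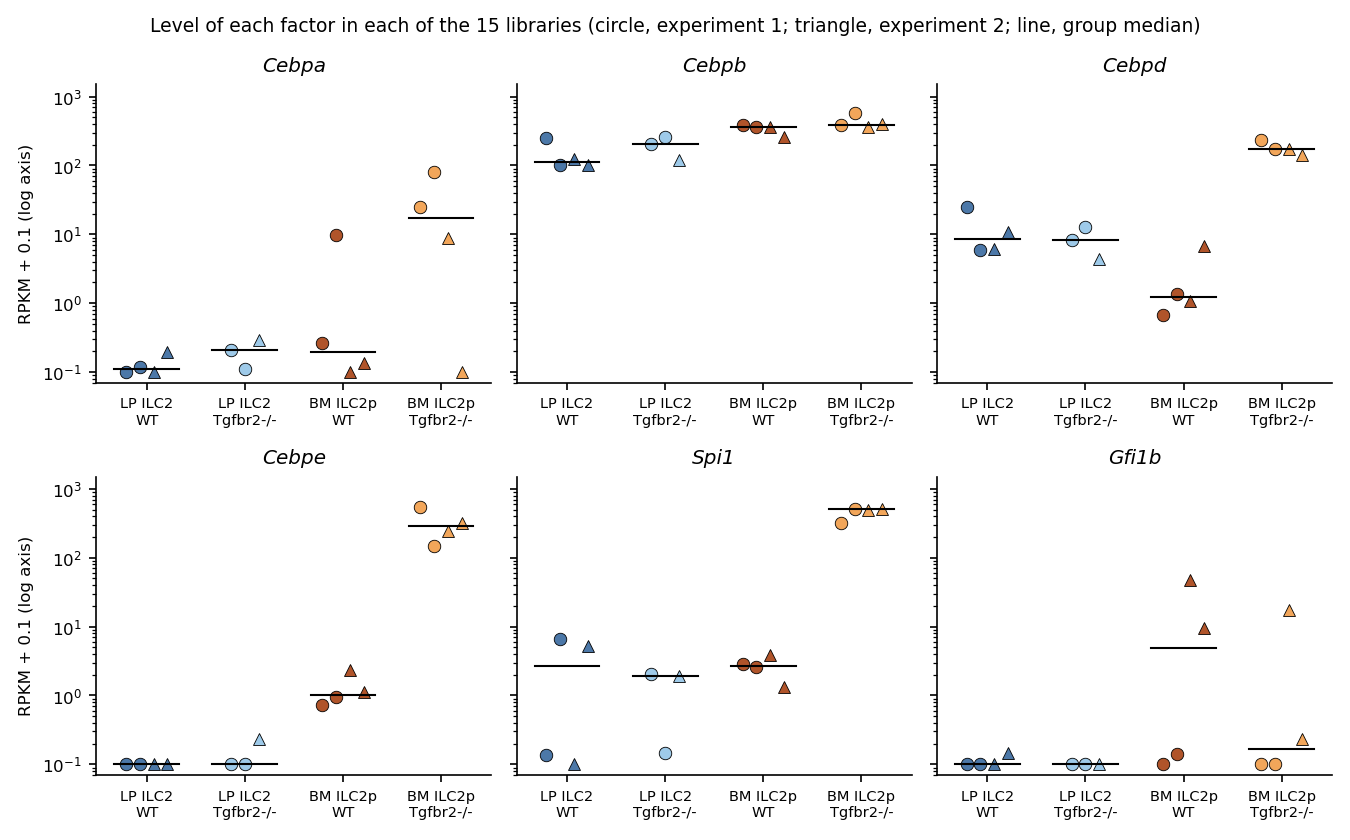
RPKM + 0.1 (log axis) of the 6 factors in each of the 15 libraries, by cell type and genotype, with circles for experiment 1, triangles for experiment 2 and a line at the group median. *Spi1*, *Cebpe* and *Cebpd* are at 141 RPKM or more in the 4 Tgfbr2-/- ILC2p libraries and at most 6.62 RPKM in the 4 WT ILC2p libraries, and *Cebpb* is at 100.5 RPKM or more in all 15.

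The markers of the sorted cells and of other cell types moved with these differences. All 13 ILC2 markers were measured, and *Gata3* led the list in every library but 1. Their summed level was 2486 to 3044 RPKM in WT ILC2p and 861 to 1133 RPKM in Tgfbr2-/- ILC2p, without overlap. Of the 12 neutrophil markers 11 were in the tables, and none was at 0 reads in any ILC2p library. Their summed level was 277, 346, 888 and 470 RPKM in WT ILC2p and 134140.0, 113590.0, 126870.0 and 106310.0 RPKM in Tgfbr2-/- ILC2p. *S100a8*, a calcium-binding protein that fills the neutrophil cytosol, was the most abundant marker in all 8 ILC2p libraries, at 145 to 477 RPKM in WT and 54984 to 68689 RPKM in Tgfbr2-/- cells. The part of these other cells in the levels of *Spi1*, *Cebpe* and *Cebpd* was not tested.

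The summed levels of other myeloid lists were also higher in Tgfbr2-/- ILC2p, without overlap, and each list held genes that separated the genotypes and genes that did not. The summed level of 8 early progenitor markers, led by *Mpo*, was 382 to 1327 RPKM in WT and 5379 to 7579 RPKM in Tgfbr2-/- ILC2p. The primary granule genes *Mpo*, *Elane*, *Prtn3* and *Ctsg* made up most of it. *Kit*, *Cd34* and *Meis1*, the stem and progenitor genes of the list, overlapped between the genotypes (*Kit* at 2.36 to 30.6 RPKM in WT and 2.87 to 44.0 RPKM in Tgfbr2-/- ILC2p), and *Flt3* was at 0 in all 8 libraries. The summed level of 9 basophil and mast cell markers was 131 to 201 RPKM in WT, led by *Cpa3*, and 1275 to 1729 RPKM in Tgfbr2-/- ILC2p, led by *Prss34*. *Prss34*, *Mcpt8* (0.410 to 2.49 RPKM in WT, 91.5 to 355 RPKM in Tgfbr2-/-), *Fcer1a* (0.0677 to 0.802 and 59.8 to 118 RPKM) and *Hdc* (1.00 to 10.9 and 352 to 493 RPKM) did not overlap between the genotypes. The other 5 markers did, among them *Cpa3* and *Kit*, and *Ms4a2* was at 0 in 7 of the 8 libraries. The share of all genes without overlap between the genotypes is not given, so non-overlap, here and elsewhere, is a description. The 10 monocyte and macrophage markers summed to 61.8 to 189.9 RPKM in WT, led by *Ccr2*, and to 1069 to 1389 RPKM in Tgfbr2-/- ILC2p, led by *Ly6c2*. *Ly6c2* alone was at 829, 998, 1120.3 and 825 RPKM in the Tgfbr2-/- libraries, and *Cd14* was at 0.0837 to 0.270 RPKM in WT and 37.0 to 110.2 RPKM in Tgfbr2-/- ILC2p, without overlap. *Csf1r* was at 68.1, 30.0, 56.3 and 0.134 RPKM in Tgfbr2-/- ILC2p and at most 2.32 RPKM in WT. *Ccr2* overlapped between the genotypes (46.4 to 104.9 RPKM in WT, 68.3 to 177 RPKM in Tgfbr2-/-), and the macrophage genes *C1qa* and *C1qb* were at most 0.205 RPKM in Tgfbr2-/- ILC2p and at most 8.74 RPKM in WT. Eosinophil markers (6 genes) summed to at most 2.85 RPKM in WT and to 345, 4.04, 387 and 32.2 RPKM in Tgfbr2-/- ILC2p. The other lists, of red cell and platelet precursors (9 genes, 246 to 473 RPKM in WT and 129.5 to 494 RPKM in Tgfbr2-/-), dendritic cells (6 genes, 1.34 to 57.5 and 0.627 to 135 RPKM), B cells (6 genes, 0.660 to 41.9 and 1.38 to 116 RPKM), T cells (6 genes, 0.0646 to 43.7 and 0.397 to 31.9 RPKM) and epithelial cells (6 genes, 0.0834 to 9.74 and 0.394 to 25.1 RPKM), overlapped between the genotypes in ILC2p.

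**Figure D2:**
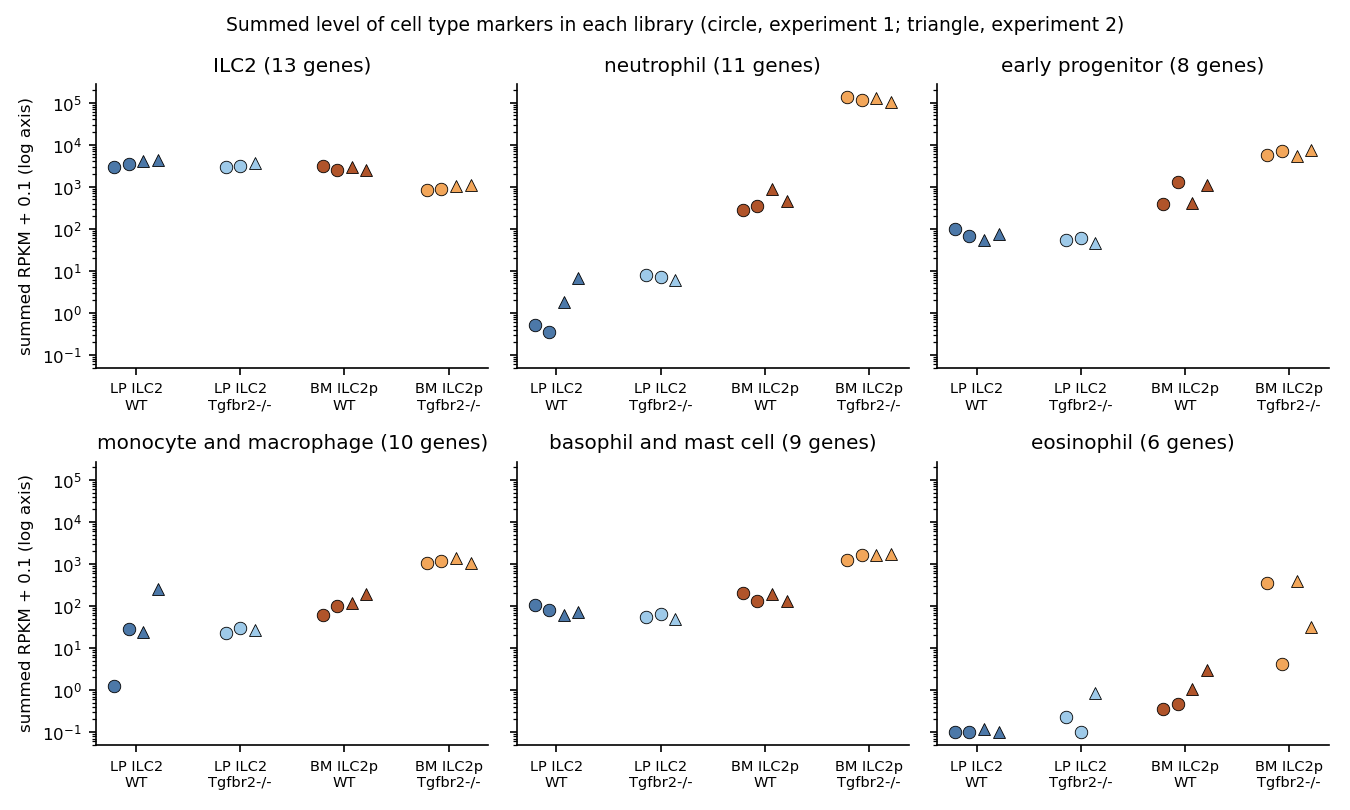
Summed RPKM + 0.1 (log axis) of 6 lists of cell type markers in each of the 15 libraries, with circles for experiment 1 and triangles for experiment 2. The neutrophil sum is at 106310.0 to 134140.0 RPKM in Tgfbr2-/- ILC2p, 277 to 888 RPKM in WT ILC2p and at most 7.77 RPKM in LP ILC2s.

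The low levels in WT ILC2p were set against the mean of the 2 Tgfbr2-/- ILC2p libraries of the same experiment. The 11 neutrophil markers stood at a median of 0.216%, 0.279%, 0.708% and 0.376% of that mean in the 4 WT libraries. *Cebpe* stood at 0.180%, 0.242%, 0.790% and 0.356%, which was within the range of the neutrophil markers in all 4 libraries. *Spi1* stood at 0.666%, 0.589%, 0.751% and 0.244%, inside that range in 2 libraries, above it in 1 and below it in 1. *Cebpd* stood at 0.282%, 0.615%, 0.626% and 4.23%, outside the range in the last library only. *Cebpb* stood at 80.0%, 73.3%, 94.3% and 67.5%, far above every neutrophil marker.

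Genes of primary granules, which are filled early in granulocyte development, mostly stood at larger fractions. *Mpo* (myeloperoxidase), *Elane*, *Prtn3* and *Ctsg* stood at 16.7% to 35.5% of the Tgfbr2-/- mean in WT replicate 2 of experiment 1, at 4.87% to 18.0% and 11.3% to 28.2% in the WT libraries of experiment 2, and at 0.171% (*Elane*) to 22.9% (*Prtn3*) in WT replicate 1 of experiment 1. The secondary granule and late genes *Ltf*, *Camp*, *Ngp*, *Lcn2* and *Mmp8* stood at 0.174% to 0.756% over the 4 WT libraries. *Cebpa*, the factor of the early stage, was at 18.3% in WT replicate 2 of experiment 1 and at 0.306%, 0% and 0.776% in the others. The cause of these differences was not tested.

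**Figure D3:**
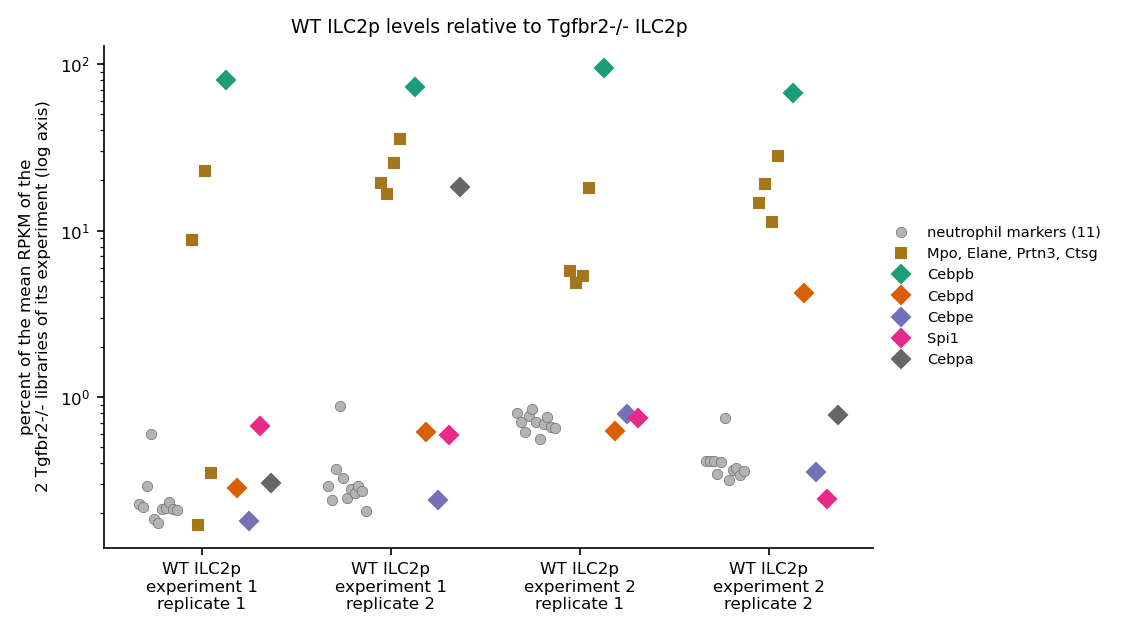
Level in each of the 4 WT ILC2p libraries as a percent of the mean RPKM of the 2 Tgfbr2-/- ILC2p libraries of its experiment (log axis), with gray circles for 11 neutrophil markers, squares for 4 primary granule genes and diamonds for the factors (*Cebpa* at 0 in WT replicate 1 of experiment 2 is not drawn, nor is *Gfi1b*). *Cebpe* lies among the neutrophil markers in every library and *Cebpb* near 100%.

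The libraries also scattered widely within groups, which bears on *Cebpa* and *Gfi1b*. Among the genes with a mean of at least 5 CPM (counts scaled to library size) in a group, 42.7% in WT ILC2p and 56.0% in Tgfbr2-/- ILC2p had a library under 1 CPM and another over 10 CPM. The same share was 15.7% in WT ILC2s and 3.03% in Tgfbr2-/- ILC2s. *Cebpa* and *Gfi1b* were among these genes in both ILC2p groups. In WT ILC2p the levels of *Cebpd*, *Cebpe* and *Spi1* were too low to enter this count, and from the lowest to the highest library they spread by 11.5-fold, 3.60-fold and 3.08-fold. Within the Tgfbr2-/- ILC2p group, *Cebpb*, *Spi1* and *Cebpd* spread by 1.61-fold, 1.60-fold and 1.65-fold from the lowest to the highest library.

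In LP ILC2s no member passed the genotype test. *Cebpb* was the highest member in all 7 libraries, at 253, 102, 124 and 100.5 RPKM in WT and 203, 259 and 120.0 RPKM in Tgfbr2-/- cells. The groups overlapped, with a log2 fold change of 0.17 (SE 0.32, adjusted p = 0.968, edgeR). *Cebpd* was at 25.0, 5.85, 6.10 and 10.7 RPKM in WT and at 8.13, 12.9 and 4.30 RPKM in Tgfbr2-/- ILC2s. It also overlapped, with a log2 fold change of -0.82 (SE 0.66, adjusted p = 0.898, edgeR). Without WT replicate 1 of experiment 1 this value was -0.08.

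*Spi1* was uneven in LP ILC2s, at 0.0349, 6.51, 0 and 5.16 RPKM in WT and 1.93, 0.0482 and 1.85 RPKM in Tgfbr2-/- cells. High and low libraries occurred in both genotypes, and the log2 fold change of -1.27 had an SE of 2.08 (adjusted p = 0.963, edgeR). It turned to 1.75 without WT replicate 2 of experiment 1. *Cebpa* had at most 8 reads, *Cebpe* at most 2 and *Gfi1b* at most 1 in any ILC2 library, and these 3 genes were not tested. Across all 11981 genes tested in LP ILC2s edgeR called 0 (0.0%), while 557 genes (4.65%) had an unadjusted p under 0.05 and DESeq2 called 326 (2.72%). Neutrophil markers summed to 0.254 to 7.77 RPKM in these 7 libraries, 6 to 9 of the 11 were at 0 reads, and the most abundant was *Mmp9*, *Ltf* or *S100a8*. The monocyte and macrophage markers summed to 258 RPKM in WT replicate 2 of experiment 2, led by *C1qa*, and to at most 29.3 RPKM in the other 6 libraries.

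Between the cell types, *Cebpb* had a higher mean in ILC2p than in LP ILC2s in both genotypes. *Spi1* and *Cebpd* were called higher in ILC2p between the Tgfbr2-/- cell types and were not called between the WT cell types (edgeR). *Gfi1b* was not tested in either comparison, at means of 14.3 RPKM in WT ILC2p and 0.0119 RPKM in WT ILC2s. Its means in Tgfbr2-/- ILC2p and ILC2s were 4.32 and 0 RPKM. In WT libraries the *Cebpb* ranges (256 to 389 RPKM in ILC2p, 100.5 to 253 RPKM in ILC2s) did not overlap in RPKM, though the nearest libraries almost met. The log2 fold change of 1.17 (SE 0.38) did not pass the edgeR test (adjusted p = 0.253) and was called by DESeq2 (adjusted p = 0.0822). *Cebpd* ran the other way, at 0.576 to 6.62 RPKM in WT ILC2p and 5.85 to 25.0 RPKM in WT ILC2s, with a log2 fold change of -2.51 (SE 1.20, adjusted p = 0.58, edgeR). Its ranges overlapped by 1 library. The exact two-sided permutation of the cell type over the 8 WT libraries, on log2(CPM + 1), gave p = 0.0571 for each of these 2 genes. The smallest p this permutation allows is 0.0286.

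*Cebpe* was the only member called between the WT cell types (adjusted p = 0.0413, edgeR), beside 2.56% of the 10468 genes tested, 0.736% higher and 1.82% lower in ILC2p. Of these calls 28.7% were higher, against 44.9% with DESeq2. *Cebpe* had no read in any WT ILC2 library. Set against 3 counts in each ILC2 library, its level in WT ILC2p was at least 7.79-fold higher. It passed the filter through ILC2p only, so its call and its direction are a description. This call was lost when any of 6 of the 8 libraries was left out (adjusted p from 0.102 to 0.143), with DESeq2 (adjusted p = 0.312), with limma on log2(RPKM + 1) (adjusted p = 0.146) and with no filter on low counts (adjusted p = 0.296). *Spi1* was at 2.56 ± 1.06 RPKM in WT ILC2p and 2.93 ± 3.40 RPKM in WT ILC2s (SD, n = 4 each), with a log2 fold change of -0.20 (SE 1.67, adjusted p = 0.988, edgeR) that turned to 0.66 without WT ILC2 replicate 2 of experiment 1.

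In Tgfbr2-/- libraries *Spi1*, *Cebpd* and *Cebpb* were called higher in ILC2p, and *Cebpe* was called as well but passed the filter through ILC2p only. The background was wide in this comparison, with 13.7% of 11469 genes called, 4.6% higher and 9.13% lower. Of these calls 33.5% were higher, against 49.2% with DESeq2 and 82.0% with the replicate number as a block. *Spi1* had a log2 fold change of 8.89 (SE 1.22, adjusted p = 0.00666, edgeR) and *Cebpd* of 4.73 (SE 0.57, adjusted p = 0.00348, edgeR). *Cebpe* had 0, 0 and 2 reads in the Tgfbr2-/- ILC2 libraries and 1866 to 12280 reads in the Tgfbr2-/- ILC2p libraries, so its call and its direction are a description. *Cebpb* had a log2 fold change of 1.49 (SE 0.38, adjusted p = 0.0381, edgeR). Its call was lost without Tgfbr2-/- ILC2 replicate 1 of experiment 1 (adjusted p = 0.124) and without the Tgfbr2-/- ILC2 library of experiment 2 (adjusted p = 0.101). *Cebpa* did not pass (log2 fold change 8.50, SE 2.81, adjusted p = 0.109, edgeR), but was called with DESeq2 (adjusted p = 4.59e-05) and without Tgfbr2-/- ILC2p replicate 2 of experiment 2 (adjusted p = 0.0391, edgeR), the library in which it had no read. For *Spi1*, *Cebpd* and *Cebpb* the exact two-sided permutation over the 7 libraries gave p = 0.0286, the smallest this design allows.

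A joint fit of the 15 libraries compared the genotype effect in ILC2p with that in ILC2s, and 0.992% of 12806 genes had an adjusted p under 0.1. The difference (effect in ILC2p minus effect in ILC2s) was positive for 52.8% of these, against 33.2% with library size scaling and 40.2% with DESeq2, and its sign alone does not say in which cell type a gene changed. *Cebpd* was among them, with a genotype effect greater by 7.65 on the log2 scale in ILC2p than in ILC2s (SE 1.17, adjusted p = 0.00958, edgeR). Without the Tgfbr2-/- ILC2 library of experiment 2 its adjusted p was 0.112. *Spi1* differed by 8.99 (SE 2.20) and missed the threshold (adjusted p = 0.105, edgeR), and DESeq2 called it (adjusted p = 8.44e-05). *Cebpb* differed by 0.39 (SE 0.46, adjusted p = 0.877, edgeR). For *Cebpa*, *Cebpe* and *Gfi1b* the ILC2 libraries held too few reads for a usable estimate of the difference.

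**Figure D4:**
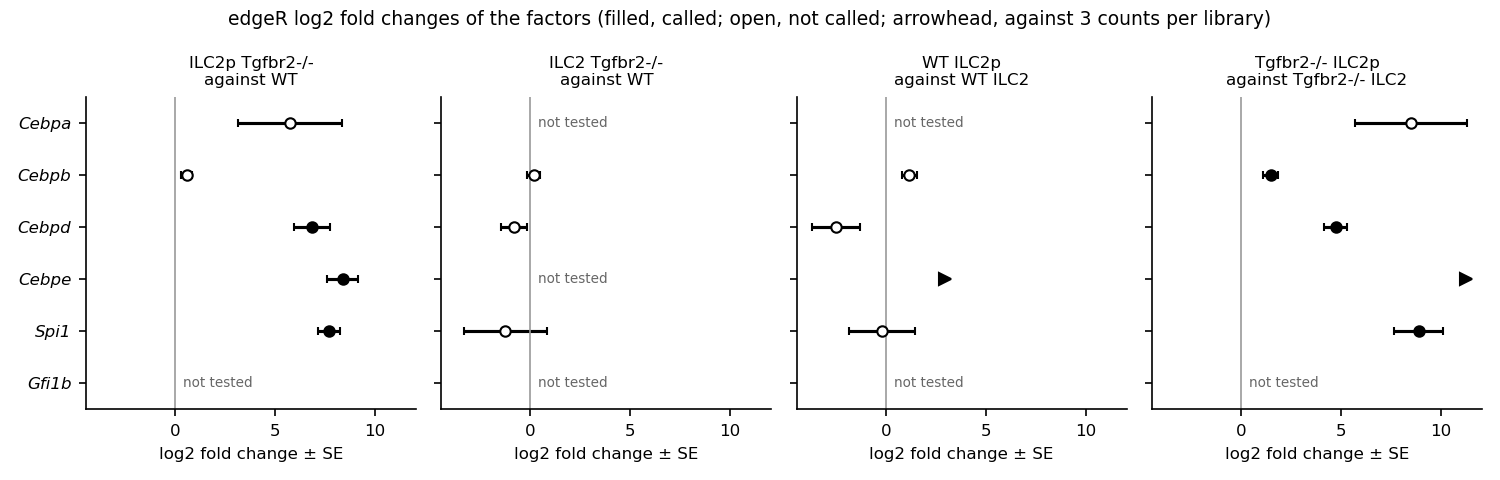
Log2 fold changes of the 6 factors with their SE (edgeR) in 4 comparisons, filled where called, open where not, with an arrowhead at the fold against 3 counts per library where all libraries on 1 side had at most 3 counts. *Spi1*, *Cebpe* and *Cebpd* are called in Tgfbr2-/- against WT ILC2p, and no factor is called in Tgfbr2-/- against WT ILC2s.

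Lists of related genes were examined in the ILC2p comparison, with the members left out. They were chosen with earlier results of these data known, so their counts are a description. Of all genes tested here, 2.61% were called higher and 0.866% lower. Of 6 other C/EBP genes and regulators, 5 were tested and 1 rose, *Trib1*, a pseudokinase that leads C/EBPα to degradation. *Trib1* was at 90.6, 49.4, 51.1 and 31.5 RPKM in Tgfbr2-/- ILC2p and at 0.149, 0.345, 0.189 and 0.126 RPKM in WT ILC2p, without overlap (log2 fold change 8.32, SE 0.75, adjusted p = 0.000379, edgeR). *Ddit3* (C/EBP homologous protein, of the stress response), *Cebpz*, *Cebpg* and *Trib2* did not pass. The median log2 fold change of the 5 was -0.22, and that of all genes tested was -0.10.

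Of 24 other myeloid and erythroid factors, 16 were tested, 1 rose and 1 fell, with a median log2 fold change of 3.25. *Gata2*, a factor of stem cells, mast cells and basophils, was at 0.111, 39.6, 24.3 and 83.5 RPKM in Tgfbr2-/- ILC2p and at 0.0265, 0.0214, 0.390 and 0.129 RPKM in WT ILC2p. The groups overlapped through 1 Tgfbr2-/- library, and *Gata2* was called (log2 fold change 8.77, SE 1.92, adjusted p = 0.0562, edgeR). *Egr1*, an immediate early factor induced by many stimuli, was at 202, 138, 66.7 and 139 RPKM in Tgfbr2-/- ILC2p and at 746, 609, 640.3 and 447 RPKM in WT ILC2p. Here WT was the higher group, without overlap (log2 fold change -1.96, SE 0.34, adjusted p = 0.0203, edgeR). The 2 calls of this list fell to 1 without WT replicate 1 of experiment 2 or without Tgfbr2-/- replicate 2 of experiment 2, and DESeq2 called 10. *Nfe2*, *Klf4* and *Fli1*, the other most abundant members of this list, did not pass, and *Nfe2* was at 141 to 266 RPKM in Tgfbr2-/- and 0.778 to 37.1 RPKM in WT ILC2p (adjusted p = 0.165, edgeR).

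The list called granule genes held 12 genes taken as bound by C/EBP factors, and not all encode granule contents (*Csf3r* encodes a receptor). All 12 were tested, and 9 rose, with a median log2 fold change of 7.77, beside 2.61% of all genes tested. *Ngp* (neutrophilic granule protein) was at 15377, 12729, 14172 and 12632 RPKM in Tgfbr2-/- ILC2p and at 30.3, 37.3, 92.5 and 49.1 RPKM in WT ILC2p. Its log2 fold change was 8.36 (SE 0.38), near that of *Cebpe*, and *Camp* (8.24), *Ltf* (lactoferrin, 8.39), *Lcn2* (8.47), *Mmp8* (8.24) and *Csf3r* (the G-CSF receptor, 8.21) rose by like amounts. *Mpo* rose by less, with a log2 fold change of 3.36 (SE 0.40, adjusted p = 0.0018, edgeR), as did *Prtn3* (3.04). *Cybb*, a subunit of the NADPH oxidase, had a log2 fold change of 7.32. *Elane*, *Ctsg* and *Ms4a3* did not pass (adjusted p from 0.139 to 0.336, edgeR), although their groups did not overlap. *Elane* was at 4.01 to 432 RPKM in WT and 1960.4 to 2632 RPKM in Tgfbr2-/- ILC2p, *Ctsg* at 2.23 to 227 and 424 to 787 RPKM, and *Ms4a3* at 0.341 to 23.2 and 135 to 253 RPKM. All 12 granule genes were called with DESeq2, with no filter on low counts and without WT replicate 1 of experiment 1, the library in which these 3 genes were lowest.

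Of 12 genes driven by PU.1, 11 were tested and 6 rose, with a median log2 fold change of 6.65, beside 2.61% of all genes tested that rose. *Lyz2* (lysozyme) was at 22.5, 47.1, 73.0 and 46.2 RPKM in WT and at 10448, 10708, 10720.0 and 9968 RPKM in Tgfbr2-/- ILC2p (log2 fold change 8.09, SE 0.34). *Tyrobp* (an adaptor of activating receptors, 7.20), *Itgam* (CD11b, 8.24), *Cd14* (8.64) and *Csf2ra* (5.99) were among the others that rose. *Cd14* was at 0.0837 to 0.270 RPKM in WT ILC2p, so low that its direction and fold change are a description. *Csf2ra* was close to the threshold (adjusted p = 0.0861, edgeR). *Csf1r*, *Btk*, *Ncf4*, *Sirpa* and *Cd68* did not pass with edgeR. The 6 calls of this list became 9 with DESeq2, 8 with no filter on low counts and 3 within each experiment alone. Without single libraries they were 5 to 7. *Itgam* stands for CD11b, which the lineage gate was meant to remove, and was at 37.3 to 95.7 RPKM in Tgfbr2-/- ILC2p. Of 10 genes of the red cell and platelet lineages, in which GFI1B acts, 3 were tested (*Klf1*, *Gata1* and *Car2*) and edgeR called none. This list held 1 call with DESeq2, with no filter on low counts and without Tgfbr2-/- replicate 2 of experiment 1. *Hba-a1*, one of several near-identical globin genes, was at 127 to 372 RPKM in WT and 32.5 to 150 RPKM in Tgfbr2-/- ILC2p and did not pass the filter.

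**Figure D5:**
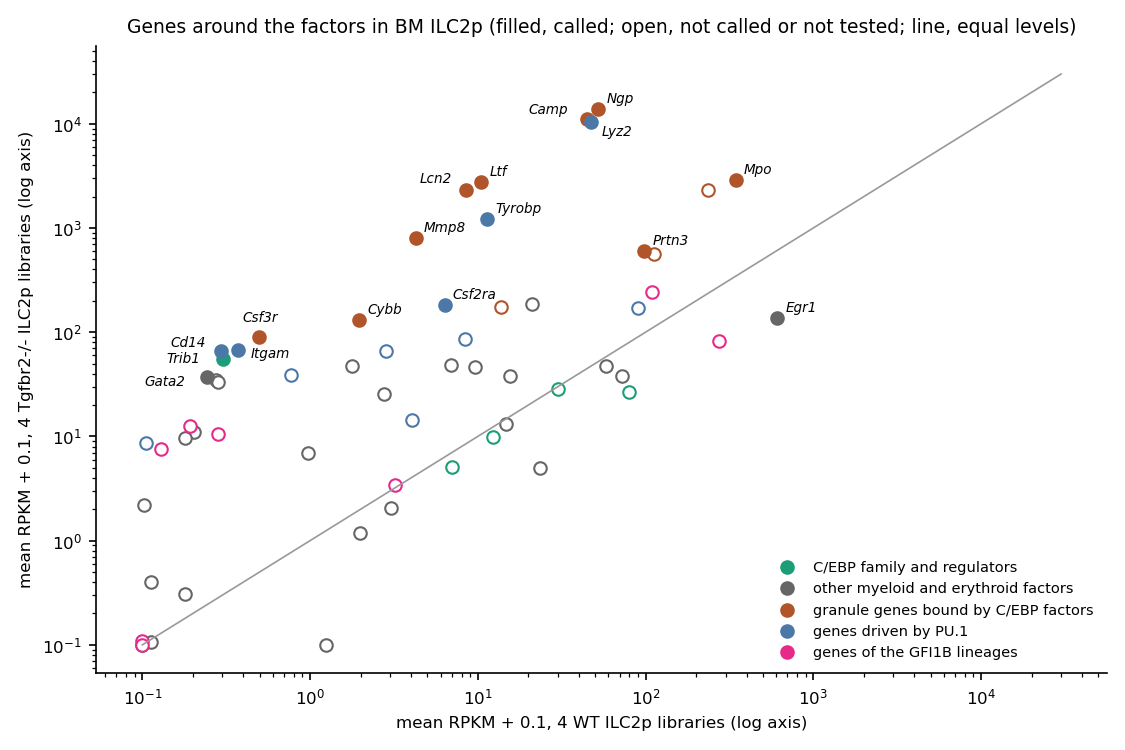
Mean RPKM + 0.1 of the genes of 5 lists (1 gene is not drawn) in the 4 WT (x) and 4 Tgfbr2-/- (y) ILC2p libraries, both axes log, filled where called. *Ngp*, *Camp*, *Ltf*, *Lcn2* and *Lyz2* lie farthest above the line of equal levels among the abundant genes, *Mpo* and *Prtn3* nearer to it, and *Egr1* below it.

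The same lists were counted between the cell types. There edgeR called 2.56% of all genes tested in WT (0.736% higher in ILC2p) and 13.7% in Tgfbr2-/- cells (4.6% higher). Between the WT cell types 8 of the 11 granule genes tested were called higher in ILC2p, among them *Mpo* at 175 to 512 RPKM in WT ILC2p and 0 reads in all 7 ILC2 libraries. Of the 11 genes, 9 had at most 3 counts in every WT ILC2 library and passed the filter through ILC2p only, so this count and its direction are a description. The same held for 11 of the 12 granule genes between the Tgfbr2-/- cell types. None of the 7 tested genes driven by PU.1 was called by edgeR between the WT cell types, which is not apart from the share of 2.56%. *Trib1* was lower and *Egr1* was higher in WT ILC2p. *Irf4* and *Egr2* were called lower there, but both were at most 0.0447 RPKM in WT ILC2p and were tested because of their level in ILC2s, so their direction is a description. Between the Tgfbr2-/- cell types all 12 granule genes, 9 of 12 genes driven by PU.1, *Trib1* and 7 of 21 other factors tested (*Irf8*, *Myb*, *Lmo2*, *Lyl1*, *Gata2*, *Klf1* and *Nfe2*) were called higher in ILC2p, and *Egr2* lower. Of the 12 genes driven by PU.1, 3 had at most 3 counts in every library of 1 cell type, as did 3 of the 21 other factors (*Myb*, *Gata2* and *Egr2*), so these counts are a description too. In the test of the difference between the genotype effects, *Trib1*, *Cybb* and *Csf2ra* passed, beside 0.992% of all genes tested. *Csf3r*, *Ltf* and *Mmp8* did as well, but they were at 0 in 5 or more of the 7 ILC2 libraries, which leaves no usable genotype effect in ILC2s to compare. In Tgfbr2-/- against WT LP ILC2s no gene of the 5 lists was called by edgeR, of 5, 14, 1, 8 and 4 tested. In that comparison edgeR called 0 of all 11981 genes tested, so this count is not a result about the lists.

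Over the 8 ILC2p libraries, the genes whose log2(CPM + 1) followed a member most closely were named from 9925 genes. *Cebpe* was followed by *BC049730*, *Trem1* and *Gm4763* (Pearson r = 0.998 each), *Spi1* by *Cxcr2*, *Clec5a* and *Prss34* (r = 0.996 to 0.998) and *Cebpd* by *Ncf1*, *Fcgr3* and *Skap2* (r = 0.996 to 0.997). *Trem1*, *Cxcr2*, *Clec5a*, *Ncf1* and *Fcgr3* encode receptors and an oxidase subunit of neutrophils and other myeloid cells, and *Prss34* encodes a protease of basophils. *Cebpb* was followed less closely, by *Gmfg*, *Eif3i* and *C920021L13Rik* (r = 0.909 to 0.938). *Cebpa* went with *Kif15*, *Arfgap3* and *Klrb1c* (r = 0.943 to 0.991) and *Gfi1b* with *Alg1*, *Zbtb26* and *Elmo3* (r = 0.994 to 0.997). Each member was set beside genes with a mean of at least 5 CPM. *Spi1*, *Cebpe* and *Cebpd* differed widely between the genotypes. Any gene with the same split has a high r with them over the 8 libraries. Over the 8, r was 0.954 for *Cebpd* with *Spi1*, 0.981 for *Cebpe* with *Spi1* and 0.970 for *Cebpd* with *Cebpe*. Within the 4 Tgfbr2-/- libraries it was -0.872, -0.548 and 0.655 in the same order. All r values share libraries and, for the genes with a few high libraries, the same few libraries, and they are a description without a test.

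Over all 15 libraries the nearest genes were *Padi4*, *Chil4* and *Ifitm6* for *Cebpe* (r = 0.996 to 0.997), *Lyz1*, *Clec5a* and *Ncf1* for *Spi1* (r = 0.975 to 0.977) and *Skap2*, *Grina* and *Pkm* for *Cebpd* (r = 0.950 to 0.969). For *Cebpb* they were *Gpr97*, *Hist2h3b* and *Ramp1* (r = 0.878 to 0.890), for *Cebpa* *Kif15*, *Mcm10* and *Alox15* (r = 0.886 to 0.964), and for *Gfi1b* *P2ry1*, *Siah1b* and *Aff3* (r = 0.871 to 0.895).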

How the data were processed

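RNA-seq had been done on sorted LP ILC2s and BM ILC2p. Per the paper's methods and the submitters' processing notes, reads were aligned to mm9 with TopHat (up to 15 hits kept; Bowtie2 is also named) and counted on RefSeq genes with the rpkmforgenes program. The authors deposited read counts per gene without normalization and, beside them, RPKM values from the same counts. No column of another sample was left unused (0 columns).

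Here the counts were fitted with the quasi-likelihood test of edgeR 4.0.16 (R 4.3.3, TMM scaling, filterByExpr, experiment as covariate in the genotype comparisons, Benjamini-Hochberg adjustment over all genes tested). A call needed an adjusted p under 0.1 and a fold change over 1.5, and in the test of the difference between genotype effects the adjusted p only. Single genes were also compared by exact two-sided permutation on log2(CPM + 1). The same comparisons were repeated with DESeq2 1.42.0, with limma 3.58.1 on log2 RPKM (pseudocounts 1 and 0.1), library size scaling, no filter, each experiment alone, each library left out and the replicate number as a block. Fits were tested on simulated data. Figures were drawn with matplotlib 3.10.9.

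The text names the 6 members, *Tgfbr2*, the called and the 4 most abundant genes of each list, and the 3 genes most like each member; other list genes are named where a count calls for it. The members, the lists of related genes and the marker lists were chosen with earlier results of these data known. *Ly6g* was not matched. The values of 1 list gene are not reported here, though list counts and medians include it. Depth is in read counts of 10957021 to 35961215 per library.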

Additional observations from a re-analysis of the deposited data

Results flagged for a closer look

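Of 15 groups of 4 libraries with values for a factor, 6 held a library far from the other 3, where chance gives about 1 in 20 if values spread normally. The same count over all genes is not given, so whether this number is particular to the factors was not tested. By another measure, 42.7% of expressed genes in WT ILC2p and 56.0% in Tgfbr2-/- ILC2p had a library under 1 CPM and another over 10 CPM. Of the factors, only *Cebpa* and *Gfi1b* were among those genes. *Cebpa* was at 9.73 RPKM in WT ILC2p replicate 2 of experiment 1, the highest of its group. *Cebpb* was at 253 RPKM in WT ILC2 replicate 1 of experiment 1 and at 583 RPKM in Tgfbr2-/- ILC2p replicate 2 of experiment 1, each the highest of its group. *Cebpd* was at 6.62 RPKM in WT ILC2p replicate 2 of experiment 2, again the highest. *Spi1* was at 321 RPKM in Tgfbr2-/- ILC2p replicate 1 of experiment 1, the lowest of its group. *Gfi1b* was at 17.2 RPKM in Tgfbr2-/- ILC2p replicate 1 of experiment 2, where the other 3 libraries had at most 0.132 RPKM.

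The genotype effect on *Cebpd* differed between the cell types, by 7.65 on the log2 scale (SE 1.17, adjusted p = 0.00958, edgeR). This call was lost without the Tgfbr2-/- ILC2 library of experiment 2 (adjusted p = 0.112, edgeR).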

How the results depend on the processing

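Of 382 log2 fold changes of the members under the alternatives, 336 kept their direction and their side of the threshold, 15 lost and 18 gained a call, and 13 turned. Values that turned were those of *Cebpb* in Tgfbr2-/- against WT ILC2s without WT replicate 2 of experiment 1 (-0.10), of *Spi1* there without the same library (1.75) and with limma on log2(RPKM + 0.1) (0.10), and of *Spi1* between the WT cell types with limma (0.39 at a pseudocount of 1, 1.59 at 0.1) and without 1 of 3 libraries (0.66, 0.16 and 0.06). The difference between genotype effects turned to -0.01 for *Cebpb* with limma at both pseudocounts and without WT ILC2 replicate 1 of experiment 1, and to 0.28 for *Gfi1b* without the run covariate. None of these was called, and the cause was not tested.

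Counts of all genes called moved more. In Tgfbr2-/- against WT ILC2p (321) they were 1229 with DESeq2, 38 and 77 within experiments 1 and 2, and 179 to 319 without single libraries (179, 185, 185 and 212 without WT replicate 1 of experiment 2, WT replicate 2 of either experiment or Tgfbr2-/- replicate 1 of experiment 1). In ILC2s (0) they were 326 with DESeq2 and 3 without the filter. Between the WT cell types (268) they were 604 with DESeq2, 436 and 422 with limma, 176 without the filter and 95 to 370.0 without single libraries (103, 98, 95 and 117 without each WT ILC2 library in turn, 142 and 147 without WT ILC2p replicate 2 of experiment 1 or replicate 1 of experiment 2). Between the Tgfbr2-/- cell types (1575) they were 1095 to 2384 without single libraries, the last without Tgfbr2-/- ILC2p replicate 1 of experiment 2. For the difference between genotype effects (127) they were 1518 with DESeq2, 196 with library size scaling, 382 and 360.0 with limma, 259 without the filter and 14 to 407 without single libraries (71, 54 and 66 without WT ILC2 replicate 1 or 2 of experiment 1 or replicate 2 of experiment 2, 54, 46 and 14 without each Tgfbr2-/- ILC2 library, 309 without WT ILC2p replicate 1 of experiment 1, 407 and 191 without Tgfbr2-/- ILC2p replicate 1 or 2 of experiment 2). Members called between the WT cell types (1) were 0 without the filter, 2 with limma at 0.1 and 0 to 1 without single libraries. In the difference between genotype effects (1) they were 3 with DESeq2 and limma at 1, 2 with limma at 0.1, without the filter and without the run covariate, and 0 to 2 without single libraries. Library size scaling moved the median of all genes in ILC2p from -0.10 to -0.31, and between the Tgfbr2-/- cell types from 0.27 to -0.11.

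Replicate numbers did not pair the samples: deviations of same-numbered libraries correlated at -0.00967 and -0.0377 in ILC2p and -0.0538 in ILC2s. With the number as a block, 175, 0, 191, 183 and 70.0 genes were called in the same order of comparisons, *Spi1* between the WT cell types was at 2.32, and the *Cebpb* call between the Tgfbr2-/- cell types was lost (1.20, adjusted p = 0.194, edgeR).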
